A study of Mus musculus with 54 samples.

Results

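Integrins are receptors made of 1 alpha and 1 beta subunit that bind the extracellular matrix or other cells and tie it, through a set of adaptor proteins, to the actin cytoskeleton. Talins and kindlins bind the beta tail and switch the receptor on, vinculin and alpha-actinin link talin to actin, the complex of integrin-linked kinase, parvin and PINCH holds the site together, and focal adhesion kinase, paxillin and p130Cas pass signals onward. In mammary carcinoma this system is known for attachment to laminin and collagen, for migration, and for the activation of latent TGF-beta by the integrins with an alpha v subunit. A fixed list of 35 such genes was followed here, 11 alpha subunits, 7 beta subunits and 17 adaptors, and all 35 were found among the 23481 rows of the expression table. The integrin genes Itga6 and Itgb4, whose proteins form the laminin receptor of hemidesmosomes, are not among the 35 and enter only a second list.

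RNA-seq was available for the 4T1 mouse mammary carcinoma line in 54 libraries, 2 (lettered A and B) for each of 27 sources. Lung metastases (Lung_1 and Lung_2) and orthotopic tumors (Tumor_1 and Tumor_2) gave 4 sources from mice, for which the labels name no host strain, no age and no sorting of tumor cells, and list the same source line and growth medium as for the cells. Clones E and T are labelled as intravasating, that is, able to enter blood vessels when a pool of clones was tested, and the 21 other clones, A to W without E and T, as non-intravasating. Each clone was grown from 1 sorted cell, so a clone is 1 lineage of 1 line, and no clone carries a named genetic change. The labels do not say whether libraries A and B of a source came from separate cultures or pieces, so a p-value based on libraries covers the scatter of those libraries alone, and that scatter may be technical.

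The depth was 16327693 to 20368740 reads a library in lung metastases, 12183058 to 17369960 in tumors, 15581390 to 31609870 for E and T and 8849257 to 27304778 for the remaining clones. A library detected between 14130 and 17300 genes, except libraries A of the lung metastases, with 20278 and 19868. Libraries B of the same specimens detected 16604 and 16972. The 8 carcinoma epithelium markers, Krt8, Krt18 and Cdh1 among them, summed to at least 14330 normalized counts in every source. Summed over 9 pan-leukocyte markers, lung metastases had 837 to 1078 and tumors 475 to 576 normalized counts, against 184 to 467 in E and T and a median of 232 (range 45.9 to 1824, the highest in clone G) in the other clones. Arhgdib, which clones also express (median 223 counts), made up most of the sum in each specimen. In bulk RNA, fewer cells of a type and less RNA per cell cannot be told apart.

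Levels below are normalized counts, the mean of the 2 libraries of a source. They were obtained by inverting the deposited variance-stabilised log2 values, and differences, given with their standard error (SE), are on the deposited log2 scale, which shrinks differences between low genes. A gene was tested where at least 2 libraries of a comparison had a normalized count of 10 or more. In the clones 33 of the 35 members passed. The 2 others, Itga4 and Itga9, were at a median of 0 counts there. A single read or more of Itga4 was seen in 4 of 46 clone libraries, at most 3 reads in any, and of Itga9 in 12 of 46, at most 4. Both subunits are best known from leukocytes, smooth muscle and lymphatic endothelium.

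Per kilobase of exon, which allows genes to be compared, 2 of the listed subunits led the others in the clones. Itgb1, the partner of most alpha subunits, had a median of 6582 normalized counts per kb and made up 92.5% of the summed level of the 7 beta subunits (range 61.2% in clone G to 98.1% in clone H). Itga3, whose product pairs with beta 1 to bind laminin, had a median of 2763 per kb and made up 72.9% of the 11 alpha subunits (49.4% in J to 78.9% in I). Itgav, the alpha v subunit shared by receptors for vitronectin, fibronectin and latent TGF-beta, followed with 614 per kb and a share of 17.2% (9.90% to 28.6%). All other listed alpha subunits had medians of 177 per kb (Itga2, a collagen receptor) or less. Among the 7 beta subunits, Itgb2 with 246 and Itgb5 with 115 per kb came after Itgb1. Itga6 and Itgb4, outside the list, had clone medians of 6778 and 1751 counts and do not enter these shares and ranks. Among adaptors the highest medians per kb belonged to Tns3, a tensin that binds actin and beta tails (1469), and Actn4, an alpha-actinin (1105).

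Promoters from RefSeq (GRCm38.p6, 250 bases before to 50 bases after the annotated start) were found for 27 of the 35 members, 33 windows in all. The CArG box, the site of serum response factor, was searched on both strands because Vcl and other adaptors are textbook targets of that factor. It occurred in 535 of 32851 promoters (1.63%) and in 3 of the 33 member windows, those of Vcl, Itgb6 and Fermt2. These 3 are shown because Vcl and Itgb6 move together in the clones and Fermt2 does not join them. In the lines below the CArG box is in capitals, and it begins 227, 50 and 204 bases before the annotated start. Itgb6 has 2 windows. The one shown belongs to a start inside the gene (chr2:60598292-60722643, minus strand). The other one, chr2:60722554-60722853 at the upstream end of the gene, held no CArG box.
Vcl, chr14:20929148-20929447, plus strand: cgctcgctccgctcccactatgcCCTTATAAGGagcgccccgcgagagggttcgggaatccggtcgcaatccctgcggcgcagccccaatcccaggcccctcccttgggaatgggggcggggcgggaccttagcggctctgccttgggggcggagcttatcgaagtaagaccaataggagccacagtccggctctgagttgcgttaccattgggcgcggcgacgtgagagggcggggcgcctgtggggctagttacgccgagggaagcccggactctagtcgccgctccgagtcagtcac
Itgb6, chr2:60673644-60673943, minus strand: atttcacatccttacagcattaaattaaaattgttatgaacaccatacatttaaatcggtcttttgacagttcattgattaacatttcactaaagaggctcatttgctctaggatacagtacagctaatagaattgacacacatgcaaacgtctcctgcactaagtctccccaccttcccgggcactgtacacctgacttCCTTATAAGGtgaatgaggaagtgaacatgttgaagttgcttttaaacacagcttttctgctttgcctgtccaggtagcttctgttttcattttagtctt
Fermt2, chr14:45530016-45530315, minus strand: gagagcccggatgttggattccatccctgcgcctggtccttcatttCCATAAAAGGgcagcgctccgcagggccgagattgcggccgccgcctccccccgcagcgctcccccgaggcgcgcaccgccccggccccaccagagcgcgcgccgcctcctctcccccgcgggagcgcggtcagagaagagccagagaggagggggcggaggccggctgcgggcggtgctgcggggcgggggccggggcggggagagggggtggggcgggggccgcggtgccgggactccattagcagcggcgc
The AP-1 letters TGANTCA were in 7.81% of all promoters and in those of 4 members (Actn4, Itga3, Itga9 and Zyx), and the TEAD letters GGAATG in 14.7% of all and in those of 4 members (Actn4, Itga10, Itgb1 and Vcl). A match is a string of letters and not a measured site.

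The clones differed in every member that could be tested. By limma's moderated F-test over the 46 clone libraries, 33 of 33 members passed an adjusted p of 0.05, which is read against 95.1% of all 13614 genes tested. Lims2 was no longer called without either library of clone G, and Itga11 without library B of clone J. The size of the spread says more than that count: the members' median range on the log2 scale was 1.51, against 1.15 for all tested genes, and 10 of 33 members (30.3%) spanned at least 2 log2 units, against 13.7% of all genes. The median SD of the members was 0.37 between clones and 0.12 between libraries of a clone. The heat map of all members shows that the spread lay mainly in integrin subunits and much less in adaptors.

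**Figure D1:**
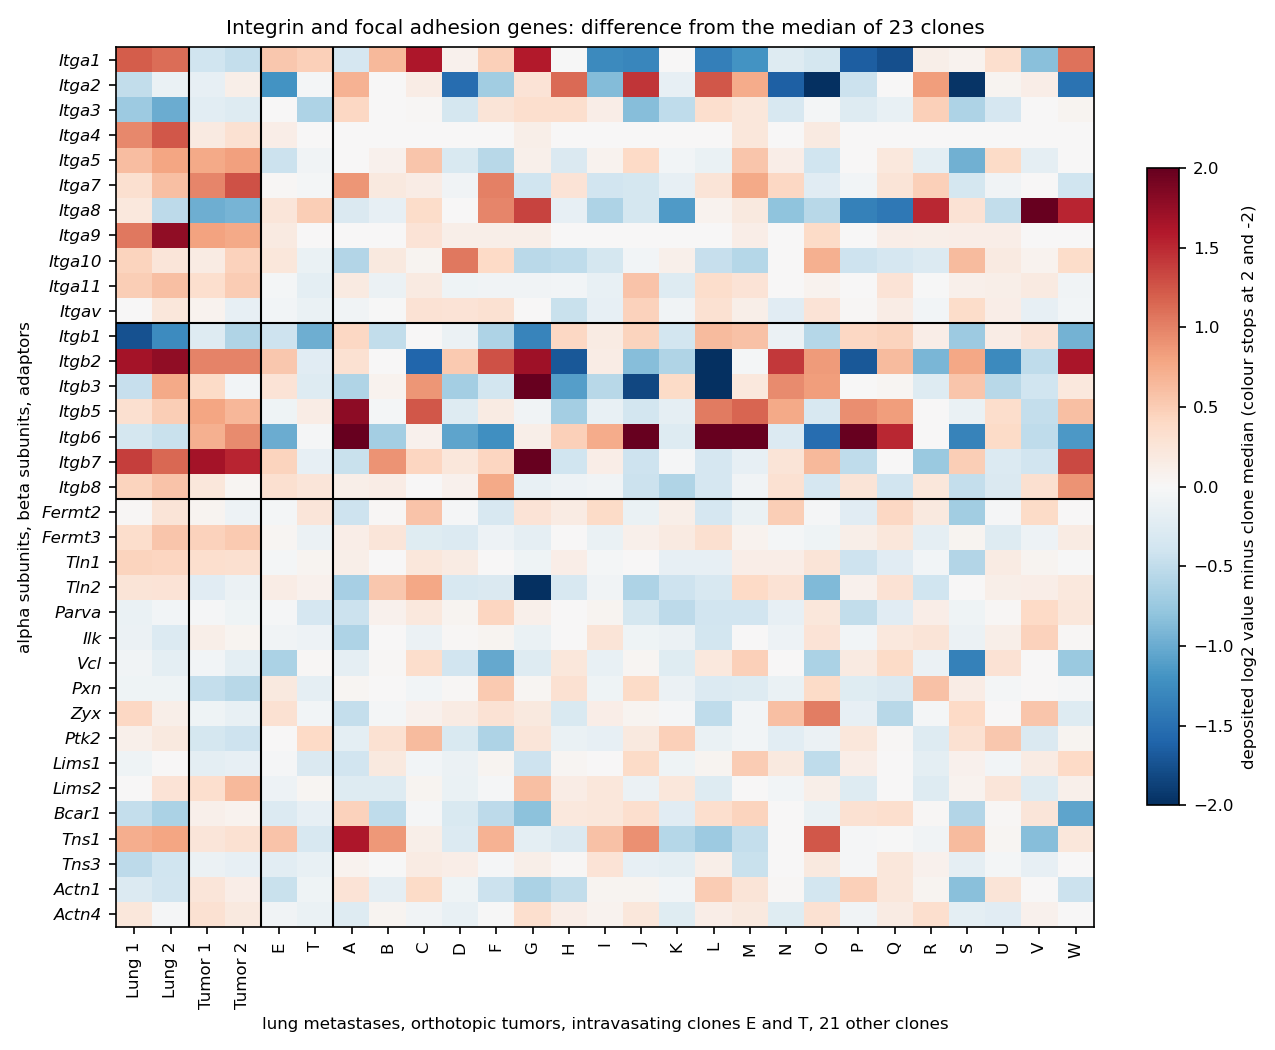
Deposited log2 value of each of the 35 members (rows: alpha subunits, beta subunits, adaptors) minus the median of the 23 clones, for 2 lung metastases, 2 orthotopic tumors, clones E and T and the 21 other clones (columns, each the mean of 2 libraries). Red is above and blue below the clone median, and the colours are strongest among clones in the rows of integrin subunits, Itgb7 in clone G and Itgb6 in clones A, J, L, M and P among them.

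Itgb6 was among the beta subunits with the widest spread, with a range of 4.197 on the deposited log2 scale beside 4.70 for Itgb7 and 4.28 for Itgb3. Its product pairs with alpha v, is expressed mainly in epithelia and activates latent TGF-beta. Clone E held 10.45 ± 1.08 counts and clone T 56.3 ± 7.14 (SD, n = 2 libraries), and the others 1.15 (O), a median of 63.9 and 662 (A), a 574-fold range over the 23 clones that rests on 3 reads in clone O. Clones A, J, L, M and P stood above 460 counts and clones D, F, O, S and W below 10.

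Itgb7, a partner of Itga4 and Itgae known from lymphocytes that home to the gut, was high in 1 clone. Clone E held 48.8 ± 10.2 counts and clone T 18.3 ± 3.96, and the others 3.56 (R), a median of 25.6 and 1119 (G). Clone W was next with 131 counts. Its partner Itga4 was at or near 0 reads in all clones, and Itgae ran from 24.03 to 82.8 counts in the 21 others. Clone G also had the highest sums of neutrophil markers (906 counts, against a median of 4.78 in the others, from S100a8 and S100a9) and of pan-leukocyte markers (1824, from Arhgdib and Cd53), while Laptm5 and Tyrobp were at most 0.976 and 0.604 counts in any clone. A link between these genes and the Itgb7 level of G was not tested.

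Itgb2, the beta subunit of the leukocyte integrins, was well expressed in carcinoma clones. Clone E held 1085 ± 75.5 counts and clone T 615 ± 31.7, and the others 126 (L), a median of 730 and 2518 (G), with W at 2404, N at 2036 and F at 1845. Its alpha partners are Itgal, Itgam, Itgax and Itgad, and these were almost absent from the same libraries. In the 21 others Itgal reached at most 1.79, Itgam 18.4, Itgax 2.36 and Itgad 0.895 counts, and E and T had at most 3.03 counts of any of them. No alpha transcript of the 4 thus came near the level of the beta transcript. Among the 9 pan-leukocyte markers, 6 were under 10 counts in every clone, Ptprc among them with at most 8.46.

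Itgb3, which pairs with alpha v as a vitronectin receptor, had a level of 417 ± 66.6 counts in E, 270 ± 19.6 in T, and in the others 35.1 (L), a median of 334 and 1660 (G). Itgb5, another alpha v partner, had 366 and 440 counts, and in the others 223 (H), a median of 392 and 1502 (A). Itgb8, the remaining alpha v partner listed, stayed low, with 14.7 and 11.6 counts, and in the others 0 (K), a median of 5.05 and 39.1 (W). Itgav itself varied little, 1.90-fold from the lowest clone to the highest. Its partners Itgb3 and Itgb6 spanned 47.3-fold and 574-fold over the same clones.

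The collagen-binding alpha subunits also varied widely. Itga2 was at 526 ± 150.3 in E, at 1222 ± 47.4 in T, and in the others 108 (O), a median of 1265 and 3513 (J). Itga1, beside it on chromosome 13 (mm10, 114953096 to 115101964 on the minus strand, with Itga2 at 114833081 to 114932100), stood at 407 ± 44.8 in E, 389 ± 5.31 in T, and in the others 41.8 (Q), a median of 260 and 930 (C). Although the 2 genes are neighbours, Itga2 was highest in J, L and H and Itga1 in C, G and W. Of the other collagen receptors, Itga10 had 89.0 and 58.3 counts, and in the others 30.5 (A) to 198 (D), and Itga11 had 2.58 and 0.986, and in the others 0.992 to 17.1.

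Itga8, which binds nephronectin and fibronectin through the RGD motif, stood at 141 ± 34.7 counts in E, 178 ± 37.3 in T, and in the others 14.3 (Q), a median of 93.5 and 678 (V). Itga5, the fibronectin receptor, spanned 256 (S) to 839 (M) in the others and had 396 and 524 counts in E and T. Itga7, a laminin receptor of muscle, had 118 and 110 counts in E and T and spanned 74.5 (W) to 285 (F).

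Adaptors were steadier. From the lowest clone to the highest Actn4 spanned 1.51-fold, Tns3 1.65-fold, Tln1 1.81-fold, Pxn 1.87-fold, Parva 1.99-fold, Lims1 2.07-fold, Ilk 2.20-fold, Ptk2 2.42-fold, Fermt2 2.50-fold, Actn1 2.60-fold, Zyx 3.03-fold, Bcar1 3.07-fold and Vcl 3.68-fold. These are talin 1, the shared core of adhesions, and its partners in linking to actin or in signalling. The exceptions were Tln2, the second talin, which fell to 85.6 counts in clone G against a clone median of 523, and Tns1, a tensin at low level, with 50.9 and 10.2 counts in E and T and 1.04 (V) to 156 (A) in the others. The kindlin and PINCH forms of other tissues were near the detection limit: Fermt3, the kindlin of blood cells, reached 20.4 counts and Lims2 12.1.

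**Figure D2:**
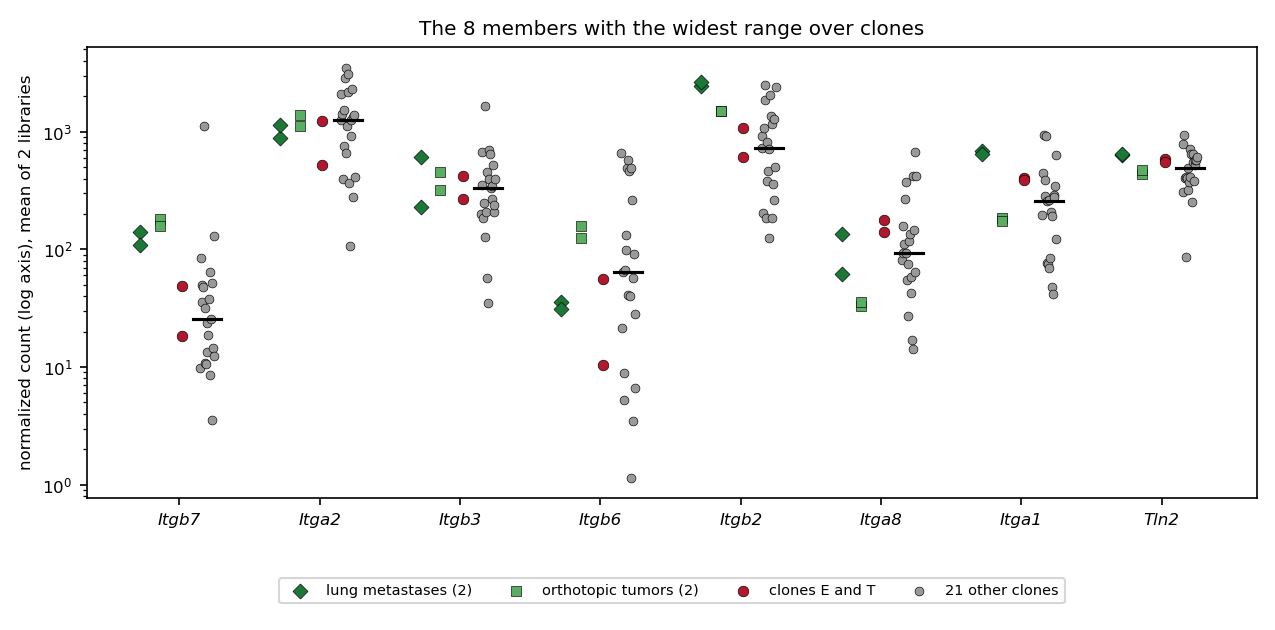
Normalized counts (log axis, mean of 2 libraries) of the 8 members with the widest range on the log2 scale, for lung metastases (diamonds), orthotopic tumors (squares), clones E and T (red) and the 21 other clones (grey, bar at their median). The E and T points lie inside the range of the other clones for all 8 genes, and 1 clone, G, lies alone at the top for Itgb7 with 1119 counts and at the bottom for Tln2 with 85.6.

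The question of the study was which genes set intravasating clones apart. With the clone as the unit, no member differed between E and T and the 21 others: limma called 0% of 13614 genes higher and 0% lower, and 0 members, with 109 genes and 0 members at an unadjusted p under 0.05. The smallest p among members was that of Itgb1, at 18770 ± 114 in E, at 12730 ± 271 in T, and in the others at 10090 (G), a median of 27530 and 39270 (L). Its difference was -0.64 ± 0.38 (SE), with an adjusted p of 0.9999 by limma. Clone T lay below all others but G, and E below 15 of them.

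A second rule follows the study's design, which sought genes overexpressed in both clones against most of the rest. A gene counted when it passed limma contrasts over libraries, adjusted within each contrast, in both E and T against at least 11 of the 21 other clones; the mirrored rule for lower genes was added here. It named 1 of 33 members as higher, beside 2.14% of all genes, and 1 as lower, beside 1.61%, so the members' share was close to that of all genes. The higher one was Itga1, higher in E than 15 and in T than 13 of the others by the contrasts, and the lower one Itgb1, lower in E than 12 and in T than 18. Itga1 lost this place without library B of E or either library of T, while Itgb1 kept it without any 1 of the 4 libraries. Several members met the rule in 1 of the clones. Vcl was lower in E than in 17 others but in T than in 4, Itgb6 lower in E than in 15 but in T than in 9, and Itga3 lower in T than in 16 but in E than in 5.

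Clone E and clone T differed from each other in many members. By limma contrast in the same fit, 8 of 33 members were higher in E, beside 15.3% of all genes, and 6 were lower, beside 13.4%. Higher in E were Tns1 (0.89 ± 0.15, adjusted p = 3.36e-05), Itgb2 (0.76 ± 0.10, adjusted p = 1.01e-06), Itga3 (0.62 ± 0.11, adjusted p = 5.35e-05), Itgb7 (0.61 ± 0.15), Itgb1 (0.56 ± 0.12, adjusted p = 0.000886), Itgb3 (0.53 ± 0.14), Pxn (0.37 ± 0.11) and Parva (0.31 ± 0.11). Lower in E were Itga2 (-1.15 ± 0.15, adjusted p = 5.08e-07), Itgb6 (-0.97 ± 0.13, adjusted p = 4.16e-07), Vcl (-0.66 ± 0.09, adjusted p = 1.60e-06), Ptk2 (-0.41 ± 0.11), Itga5 (-0.35 ± 0.12) and Actn1 (-0.35 ± 0.10). In counts, Itga3 stood at 14520 ± 691 in E and 9436 ± 105 in T, and Vcl at 2021 ± 3.00 in E and 3230 ± 3.28 in T. The 7 calls on Tns1, Itgb2, Itga3, Itgb1, Itga2, Itgb6 and Vcl held without any 1 of the 4 libraries. The other 7 were lost without at least 1 of them, with adjusted p between 0.052 and 0.289 where lost: Itgb3 and Itgb7 without E library A, Actn1 without T library B, Itga5 without either of those, Ptk2 without E library A or T library A, Pxn without E library B or T library B, and Parva without E library A or either T library.

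Of the 8 carcinoma epithelium markers, 1 was higher and 4 were lower in E than in T, beside 15.3% and 13.4% of all genes. Their part in these differences was not tested. Of 49 other adhesion genes tested, 11 were higher and 7 lower in E than in T, beside the same shares. Enah, an actin elongation factor, stood at 597 and 190 counts and Fermt1, the epithelial kindlin, at 1202 and 2665. Of 26 integrin ligands, 6 were higher and 9 lower, again beside 15.3% and 13.4%. The 3 chains of laminin-332, the ligand of alpha 3 beta 1, were lower in E, among them Lamb3 (-2.55 ± 0.13) with 36.7 counts in E and 462 in T. Npnt, the nephronectin bound by alpha 8 beta 1, reached 1923 counts in E, against 406 in T. Icam1, also a listed ligand, was lower in E (-2.30 ± 0.16), with 32.7 counts against 355.5 in T.

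Across the clones some members were correlated with each other, several of them with Itgb1. Over the 23 clones (1 value each, from libraries that differ in depth), 22 pairs of textbook partners were correlated with 100000 permutations, and 3 passed a Benjamini-Hochberg adjusted p of 0.05 by both Pearson's r and Spearman's rho. Vcl and Actn1, both actin linkers, had r = 0.76 and rho = 0.67 (p = 5e-05 and 0.00059, adjusted p = 0.00066 and 0.00649), and r = 0.66 without F and S, the clones farthest from the median of Vcl. Ilk and Parva, which bind each other, had r = 0.59 and rho = 0.56 (p = 0.00264 and 0.00657, adjusted p = 0.0194 and 0.0361), and r = 0.45 without A and V. Itga1 and Itgb1, the 2 chains of 1 collagen receptor, moved in opposite directions, with r = -0.74 and rho = -0.77 (p = 6e-05 and 7e-05, adjusted p = 0.00066 and 0.00154), and r = -0.71 without P and Q.

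The remaining partner pairs did not pass by both measures. Itga3 and Itgb1, the leading pair by level among the listed subunits, had r = 0.15 and rho = 0.17 (permutation p = 0.498 and 0.446). Itgav had r = -0.11 with Itgb3, 0.13 with Itgb5, 0.04 with Itgb6 and -0.31 with Itgb8, none past the threshold. Itga2 and Itgb1 passed by rho (0.58, permutation p = 0.00401, adjusted p = 0.0294) and not by r (0.53, adjusted p = 0.053). So did Vcl and Zyx, in opposite directions (rho = -0.53, permutation p = 0.011, adjusted p = 0.0486; r = -0.46, adjusted p = 0.104). Pxn had r = -0.36 with Ptk2 and -0.23 with Bcar1.

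All 528 pairs of the 33 members were examined in addition, a step chosen after the partner pairs had been seen. In 17 pairs r was positive and in 11 negative with both adjusted p under 0.05. The share that passes among pairs of all genes was not computed, for these or for the partner pairs. The counts therefore do not set the members apart from other genes. The largest was that of Itgb1 with Bcar1, which encodes p130Cas, a scaffold that is phosphorylated when integrins engage: r = 0.91 and rho = 0.93 (permutation p = 1e-05 each, the smallest that the permutations can give; adjusted p = 0.00226 and 0.00176), and r = 0.94 without G and T. Bcar1 had 1610 and 1726 counts in E and T, and in the others 912 (W), a median of 1980 and 2797 (A). Itgb1, Bcar1, Actn1, Vcl and Itgb6 are named as a group because each of their 10 pairs passed, so that their passing is no further support. In this group r ran from 0.65 (Itgb1 and Vcl) to 0.91, and from 0.64 to 0.94 without the 2 clones farthest from the median. Itga2 joined it through Itgb6 (r = 0.70, and 0.64 without O and S) and Vcl (r = 0.65, and 0.55 without O and S), and Itga5 through Vcl (r = 0.80, and 0.64 without F and S).

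Opposite to this group stood other receptors. Against Itgb1, r was -0.73 for Itgb7, -0.74 for Itga1 and -0.64 for Itgb2, and -0.84 for Itgb7 and -0.64 for Itgb2 without G and T. Itgb6 had r = -0.78 with Itga10, -0.70 with Parva and -0.65 with Zyx, and -0.63 with Parva and -0.53 with Zyx without A and L. Itgb7 was positively correlated with Itgb2 (r = 0.62, and 0.65 without G and L) and Itgb3 (r = 0.68, and 0.52 without G and L). The clones with the least Itgb1 were G with 10090, T with 12730, W with 13080 and S with 15190 counts, and the clones with the most were L with 39270 and M with 38000. In G and W, Itgb2 was at its highest 2 values, and in L at its lowest.

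**Figure D3:**
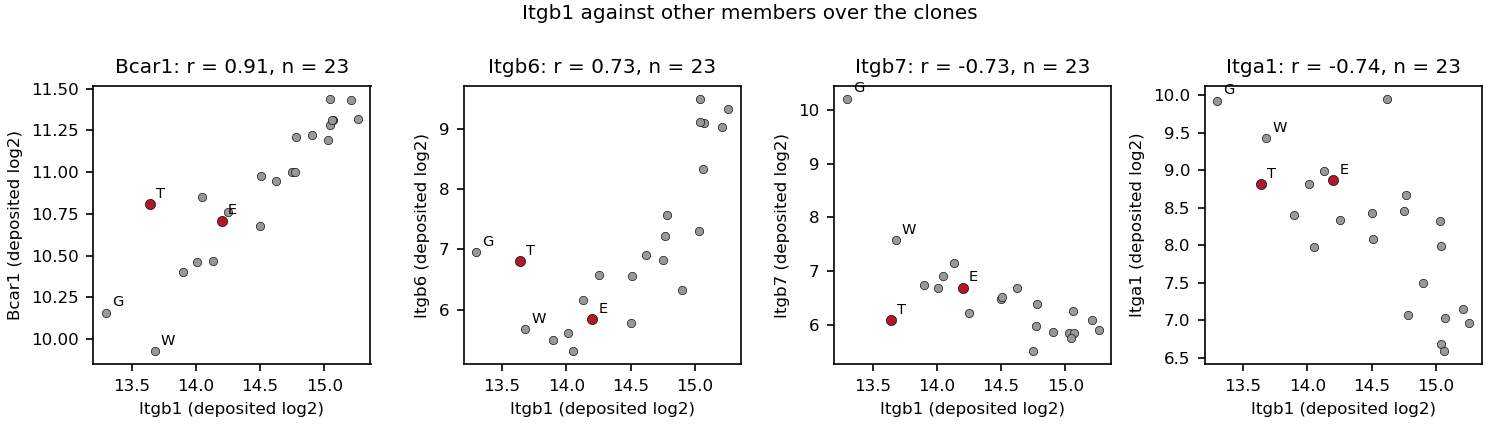
Deposited log2 values of Bcar1, Itgb6, Itgb7 and Itga1 (vertical axes) against Itgb1 (horizontal axis), 1 point per clone, with clones E and T in red and G and W named. Bcar1 and Itgb6 rise with Itgb1 (r = 0.91 and 0.73), whereas Itgb7 and Itga1 fall with it (r = -0.73 and -0.74).

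The CArG box bears on 1 of these pairs only as a description. Vcl and Itgb6 had r = 0.67 and rho = 0.70 (permutation adjusted p = 0.0144 and 0.0149). The window of Vcl holds the box, but for Itgb6 only the window at a start inside the gene does. Fermt2, the third gene with the box, did not pass with either. Actn1 and Bcar1, which moved with Vcl, had none in their windows.

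Itgb1 and Bcar1 lie on the same chromosome (mm10), Bcar1 at chr8:111710474-111743809 on the minus strand and Itgb1 at chr8:128685654-128733200 on the plus strand. Levels of a gene were therefore set beside the median of its neighbours within 5 Mb, a step also chosen after the correlation had been seen. For Itgb1 r with its 32 neighbours was 0.68 and for Bcar1 with its 58 neighbours 0.70 over the 23 clones, against a median of 0.46 and a 5th to 95th percentile of -0.12 to 0.81 over 12008 genes. The neighbours of both genes were lowest in clones G (-0.55 and -0.56 log2 units from the mean of clones), W (-0.50 and -0.39) and F (-0.32 and -0.32). Without these 3 clones, r of Itgb1 was 0.88 with Bcar1, 0.79 with Itgb6, 0.65 with Actn1, -0.62 with Itga1, -0.64 with Itgb7 and -0.46 with Itgb2. Clone T had low Itgb1 with neighbours at -0.02. Itgb6 and Itgb7 did not follow their neighbours (r = -0.07 and 0.00). Of the correlated group, Actn1 had r = 0.61 and Vcl 0.25 with their neighbours. Lims1 (0.69), Itga5 (0.67) and Tln1 (0.67) followed theirs about as closely as Itgb1 and Bcar1 did.

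**Figure D4:**
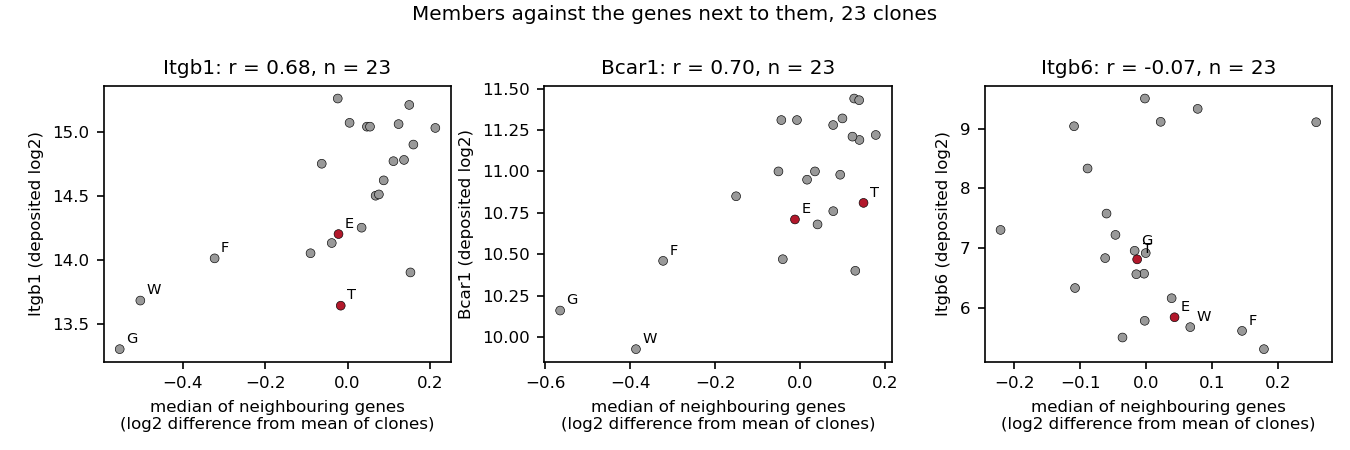
Deposited log2 value of Itgb1, Bcar1 and Itgb6 (vertical axes) against the median log2 difference of the tested genes within 5 Mb (horizontal axes), 1 point per clone, with E and T in red. Clones F, G and W lie at the lower left for Itgb1 and Bcar1, and Itgb6 shows no relation to its neighbours (r = -0.07).

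Lung metastases and tumors were compared on 1 value per specimen, 2 against 2. By limma 8 of 35 members were higher in lung metastases, beside 16.7% of 13679 genes tested, and 6 were lower, beside 14.8%. The median difference of the members was 0.00, against 0.02 for all genes, so the list as a whole did not shift. Among subunits, Itga1, Itga4, Itga8 and Itgb2 were higher and Itga3, Itga7, Itgb1 and Itgb6 lower in lung metastases.

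Itga1 had the largest difference on the deposited scale, which shrinks that of low genes such as Itga4. It had 688 ± 9.66 and 645 ± 151.4 counts in Lung_1 and Lung_2 (SD, n = 2 libraries), against 186 ± 25.0 and 176 ± 53.7 in Tumor_1 and Tumor_2, a 3.68-fold difference of means (1.60 ± 0.11, adjusted p = 6.23e-05). Both lung values lay above those of 21 of 23 clones. Itgb6 had 35.4 ± 5.61 and 31.4 ± 9.44 counts, against 126 ± 7.26 and 158 ± 13.1 in the tumors (-1.22 ± 0.13, adjusted p = 0.000485).

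Itgb1 itself was lower in lung metastases, with 7455 ± 73.7 and 10460 ± 1099 counts, against 21020 ± 594 and 16900 ± 4778 in the tumors (-1.08 ± 0.20, adjusted p = 0.00458). Lung_1 lay below all 23 clones and Lung_2 below 22 of them, the exception being G with 10090. Itgb2 had 2467 ± 226 and 2643 ± 41.0 counts, against 1506 ± 8.04 and 1511 ± 91.2 in the tumors (0.73 ± 0.11, adjusted p = 0.00171). Per kilobase, the share of Itgb1 among the 7 beta subunits was 64.4% and 69.3% in the lung metastases against 86.2% and 83.9% in the tumors, and that of Itgb2 was 27.4% and 22.5% against 7.93% and 9.64%.

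Itga3 had 8863 and 7287 counts in lung metastases against 12540 and 12110 in tumors (-0.62 ± 0.14, adjusted p = 0.0120). Itga7 had 161 and 201 against 277 and 382 (-0.66 ± 0.15, adjusted p = 0.0118). Itga8 had 136 and 61.6 against 33.3 and 35.5 (0.79 ± 0.21, adjusted p = 0.0237). Itga8 differed over 2-fold between the lung metastases. Itga4 had 15.2 and 26.03 counts, from 37 and 63 reads, against 0.949 and 1.56 counts, from 2 and 3 reads, in tumors. It was admitted to the comparison only by the lung libraries, where it is high, so its call is a description.

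Among adaptors the signalling proteins split. Ptk2, focal adhesion kinase, was higher in lung metastases (3020 and 3246 against 2198 and 2105 counts, 0.53 ± 0.11), as were Pxn, or paxillin (3135 and 3103 against 2373 and 2248, 0.42 ± 0.11), Tln2 (633 and 643 against 437 and 476, 0.43 ± 0.11) and Tns1 (61.9 and 66.5 against 31.2 and 35.8, 0.50 ± 0.12). Bcar1 was lower (1386 and 1245 against 2106 and 2069, -0.65 ± 0.11, adjusted p = 0.00344), and so was Actn1 (2733 and 2482 against 3887 and 3613, -0.51 ± 0.11). Vcl, at 3053 and 2800 counts against 3055 and 2773, and Tln1, at 4150 and 4093 against 3854 and 3783, did not pass the threshold.

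**Figure D5:**
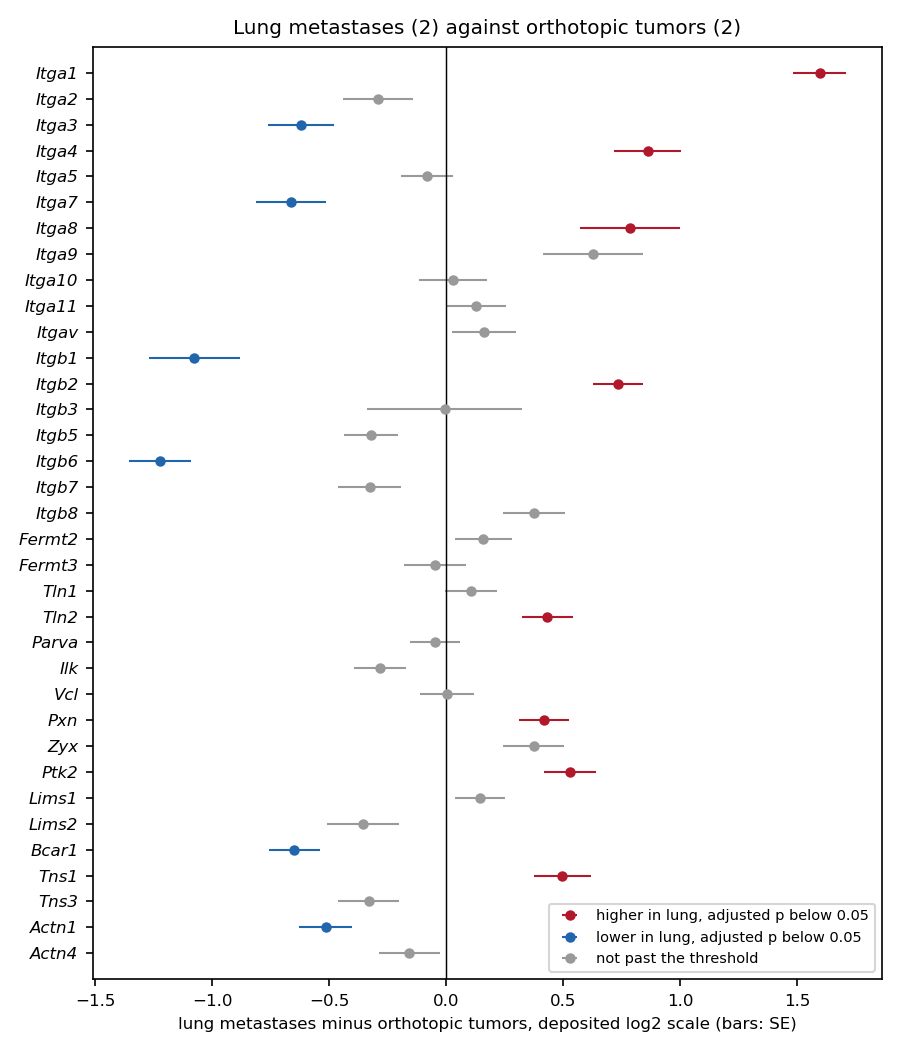
Difference of each of the 35 members between 2 lung metastases and 2 orthotopic tumors on the deposited log2 scale (lung minus tumor, bars are SE), in red or blue where the limma adjusted p was below 0.05. Itga1 lies farthest to the right at 1.60, and Itgb6 (-1.22) and Itgb1 (-1.08) farthest to the left.

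These calls rest on 4 specimens. Without Tumor_1 the counts were 2 higher and 2 lower members and without Tumor_2 3 and 3. Itga1, Itgb6 and Itgb2 held without any 1 specimen. In a fit of all 27 sources, whose spread is that between clones, no member but Itga4 and Itga9 passed (for Itga1, adjusted p = 0.520). Bcar1 and Itgb1 were lost without Tumor_1 (adjusted p = 0.0503 and 0.0657), and Itga7 without Tumor_2 (0.118). Itga3 was lost without Tumor_1, Tumor_2 or Lung_2 (0.065 to 0.115), and Itga8, Tln2, Pxn, Ptk2, Tns1 and Actn1 without either tumor (0.054 to 0.162). With no filter on low values, which tests more genes, Itga3, Itga7, Itga8 and Tns1 were also lost (adjusted p = 0.0528, 0.0634, 0.111 and 0.0519).

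Markers of other cell types were followed beside these differences. Of all genes tested, 16.7% were called higher and 14.8% lower in lung metastases than in tumors. Pan-leukocyte markers summed to 837 and 1078 counts in lung metastases against 475 to 576 in tumors, with 4 of 9 markers called higher. Most of each sum was Arhgdib (660 and 564 counts against 446 and 370), which clones also express (median 223). Fibroblast markers summed to 1671 to 4487 against 687 to 790, with 1 of 6 tested called higher; most of that sum was Pdgfra (1492 and 3394 against 569 and 512), which clones also express, and Col1a1 in Lung_1 (45.5) was not above the tumors (53.7 and 52.4). The 8 carcinoma epithelium markers summed to 15600 to 22250 against 24970 to 27890, with 6 of 8 called lower and 0 higher. The other 2, Krt8 and Krt18, were not lower. Krt8 had 7542 and 5762 counts against 5026 and 4678 in tumors, and Krt18 10950 and 7459 against 8021 and 7173. Lymphocyte markers summed to 19.0 counts at most. The part of these cells in the changes of Itga1, Itgb2, Itga4, Itgb6 and the others was not tested. The alpha partners of Itgb2 were at higher counts than in the clones, with Itgam at 65.7 and 258 in lung metastases and 92.0 and 66.4 in tumors and Itgal at 17.2 and 31.4 against 7.36 and 3.69, still far under Itgb2.

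Among 52 other adhesion genes 11 were higher and 8 lower in lung metastases, beside 16.7% and 14.8% of all genes tested. Itgb4 had 1750 and 1495 counts against 686 and 848 in tumors (1.02 ± 0.13), and Cav1, a caveolar protein, 169 and 210 against 555 and 470 (-1.20 ± 0.14). Of 28 ligands 7 were higher and 9 lower, beside the same shares. Ctgf (518 and 541 against 3721 and 3525 counts), Cyr61 (1381 and 1318 against 9213 and 7404) and Thbs1 (3519 and 3490 against 12140 and 12600), matricellular ligands of several integrins, were lower, and Ibsp, or bone sialoprotein, was higher (96.1 and 491 against 22.4 and 5.55).

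Both kinds of specimen were also set against the 23 cultured clones, in 1 fit of 27 values in which the 2 comparisons share the clones. Here 6 of 35 members were higher in lung metastases than in clones, beside 12.4% of 14212 genes tested, and 3 were lower, beside 6.34%. Of those called higher, Itga4 and Itga9 in lung metastases passed the filter only through specimens. In tumors 5, Itga9 included, were higher than in clones, beside 5.71%, and 0 were lower, beside 1.75%, by limma, with 10 of 35 members at an unadjusted p under 0.05 in either direction, against 2909 of the 14212 genes.

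Itga5, the fibronectin receptor, was the member of high level that was higher in each. It had 889 ± 138.6 and 1006 ± 171.7 counts in lung metastases and 979 ± 12.3 and 1022 ± 87.1 in tumors, against 256 (S), a median of 552 and 839 (M) in the clones (0.75 ± 0.25 in lung metastases, adjusted p = 0.0316, and 0.84 ± 0.25 in tumors, adjusted p = 0.0350). All 4 specimens lay above all 23 clones. With specimen libraries A alone, the call of Itga5 in tumors was lost (adjusted p = 0.0756). Its ligand Fn1, fibronectin, had 67860 and 102500 counts in lung metastases and 58140 and 58880 in tumors, against a clone median of 30110 (1.61 ± 0.44 in lung metastases, adjusted p = 0.00993, and 1.11 ± 0.44 in tumors, adjusted p = 0.127).

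Itga9 and Itga4, near 0 in the clones, were present in specimens. Itga9, which binds tenascin and osteopontin, had 18.1 and 56.6 counts (44 and 137 reads) in lung metastases and 10.7 and 9.43 (23 and 18 reads) in tumors, against at most 2.30 in any clone. Itga4 had 15.2 and 26.03 counts in lung metastases and 0.949 and 1.56 in tumors, against at most 1.61 in any clone. Neither gene passed the filter on low values in the clones: both entered the comparison only through the specimens where they are high, so that they had to differ, and their place among the members called is a description of these counts.

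Fermt3, the blood-cell kindlin, had 21.3 and 30.2 counts in lung metastases and 25.9 and 30.4 in tumors, against a median of 9.71 and at most 20.4 in the clones (0.45 ± 0.13 and 0.50 ± 0.13, adjusted p = 0.0128 and 0.0142). C1qa, a macrophage marker, was at 12.1 and 36.7 counts in lung metastases and 3.68 and 7.58 in tumors, against 0 in every clone. Other leukocyte or macrophage markers were present in clones, with Cd53 at 239 and Cd68 at 488 counts in clone G. Between lung metastases and tumors Fermt3 did not pass the threshold (-0.05 ± 0.13). Blood-cell markers did not all go the same way there. Of 7 macrophage markers 2 were called higher in lung metastases and 0 lower, and of 3 platelet markers 0 higher and 1 lower. These counts stand beside 16.7% and 14.8% of all genes tested. Cd68 had 139 and 226 counts against 235 and 196 in tumors, and Ppbp, a platelet marker, 42.0 and 44.6 against 148 and 212. Col1a1, a fibroblast marker, had 45.5 and 337 counts in lung metastases and 53.7 and 52.4 in tumors, against at most 11.6 in a clone. The part of such cells in the Itga9 and Fermt3 levels was not tested.

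In tumors Itga7 was also higher, with 277 ± 24.3 and 382 ± 205.2 counts against a clone median of 114 (1.03 ± 0.28, adjusted p = 0.0225), and Lims2 had 8.04 and 13.5 against 1.28 (0.50 ± 0.16, adjusted p = 0.0449). The Lims2 call was lost in 6 of 11 alternatives, with log2(normalized count + 1) (adjusted p = 0.0745), without the variance trend (0.0574) and without Lung_2 (0.0525) among them. In lung metastases Tln1 (4150 and 4093 counts against a clone median of 3027, 0.45 ± 0.15, adjusted p = 0.0293) and Itga11 (14.2 and 18.2 against 3.44, 0.50 ± 0.14, adjusted p = 0.0130) were higher. Tln1 lay above every clone in all 4 specimens but passed in lung metastases alone; the difference between lung metastases and tumors did not pass (0.11 ± 0.11, adjusted p = 0.495).

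Lower than in the clones were, in lung metastases, Itgb1 (clone median 25110 counts, -1.39 ± 0.38, adjusted p = 0.0107), Itga3 (clone median 14520, -0.80 ± 0.25, adjusted p = 0.0279) and Tns3, with 7592 and 8320 counts against a clone median of 10990 (-0.45 ± 0.13, adjusted p = 0.0160). Without Lung_1 or without Lung_2, 2 members were called higher (Itga4 and Itga9) and 0 lower, and without Tumor_1 or without Tumor_2, 1 member (Itga9) was called higher in tumors. For the members lost in this way, the adjusted p then lay between 0.0596 and 0.363 in lung metastases and between 0.110 and 0.925 in tumors.

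Other differences did not pass the threshold. Itgb7 had 140 and 110 counts in lung metastases and 181 and 158 in tumors, all above 22 of 23 clones or 21 of 23, but clone G exceeded them at 1119 counts (1.03 ± 0.63 and 1.36 ± 0.63, adjusted p = 0.270 and 0.219). Without clone G, left out after the data had been seen, Itgb7 was called higher in lung metastases and in tumors. Pxn was lower in both tumors than in every clone (2373 and 2248 counts, clone minimum 2693) and did not pass (-0.55 ± 0.18, adjusted p = 0.0603).

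Several members share exon bases with another gene on the opposite strand, and the counting's strand setting is not given in the sources used here. The longest overlaps were those of Ilk with Taf10 (2106 bases), Vcl with Ap3m1 (2090) and Itga4 with Cerkl (1124), and for Itga10 and Itga1 a same-strand readthrough model shares 1739 and 685 bases. Reads from such stretches cannot be told apart.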

How the data were processed

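The authors deposited log2 values for 23481 genes in 54 libraries. Per the labels' protocols, 100 ng of RNA was amplified to cDNA with a NuGEN kit and sequenced with reads of 76 bases, and the mm10 build, Bowtie2, HTSeq and DESeq are named in the submitters' processing notes. Tool versions and the strand setting: not given in the sources used here. Read from the values, the log2 values deposited by the authors are variance-stabilised with a floor of 5.03. Inverting that curve gave normalized counts, which were whole reads within 0.01 for 100% of values once divided by the value of 1 read. There were 0 columns without a sample. Left out were 27 rows with a date for a symbol and 4 with a repeated symbol, and 1316 genes had no read.

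Tests used limma 3.58.1 in R 4.3.3 (variance trend, two-sided, Benjamini-Hochberg over all tested genes, 0.05), on 1 value per clone or specimen, or on 46 clone libraries for the F-test, the study's rule and E against T. The design had foreseen log2(value + 1); the deposited values were already log2 and were tested as they stand, with log2(normalized count + 1) as an alternative. The fits and permutations were tested on simulated data. Libraries A and B of a source correlated at 0.981 to 0.998 across genes and were never identical. Lengths and positions are from GENCODE M21 (GRCm38, the same as mm10). Members and lists were chosen with earlier results of these data known. Named in full were members past a threshold, the 8 with the widest range and those near 0 reads, and of the other lists at most 6 genes per comparison with the largest differences. Alternatives were another scale, no filter, no trend, equal medians, a block for the library letter, and leaving out libraries, specimens or clones.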

Additional observations from a re-analysis of the deposited data

How the results depend on the processing

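No result called as reported changed direction under the alternatives run; Itgb3, not called between lung metastases and tumors, was called higher without Lung_1 and lower without Lung_2. Most limits come from few specimens. Without a filter on low values 1 member was called lower in tumors than in clones in place of 0, and with specimen libraries B alone it was also 1; with specimen libraries A alone 3 members were higher in place of 5 (Itga5, Itga7 and Fermt3 were lost and Itga4 gained). Between lung metastases and tumors, no filter gave 6 higher and 4 lower members, libraries B alone gave 1 higher and 1 lower member, and a fit that takes the spread from the clones too gave 2 and 0, in place of 8 and 6. Between lung metastases and clones, the calls of Fermt3, Itga11 and Itga3 were lost with specimen libraries B alone. Leaving out 1 library, clone or specimen at a time gave 0 to 1 higher member by the study's rule, 5 to 9 higher in E than in T, 1 to 6 higher in tumors than in clones, 2 to 6 higher and 0 to 3 lower in lung metastases than in clones, and 2 to 11 higher and 2 to 9 lower in lung metastases than in tumors, where a lone specimen is assumed to vary like the other kind. With a replicate block for the library letter, 9 members were higher and 7 lower in E than in T, 1 was higher and 1 lower by the study's rule, and 33 differed among clones. The letters share only a name: the deviations of same-lettered libraries correlated at a median of 0.08 over 253 pairs of clones (-0.50 to 0.64), with 113 pairs over 0.1. Without clone G, added after seeing the data, 7 members were higher in tumors and 7 higher and 3 lower in lung metastases than in clones. The partner correlations of Ilk with Lims1 and Tln1 with Vcl, which had not passed, reached -0.11 and -0.06 when 1 clone was left out. Genes of under about 10 counts, such as Itga11, Itgb8 and Lims2, rest on few reads.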
